A study of Homo sapiens with 12 samples.

Results

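CDKN1A, GADD45A, GDF15 and CCNG2 are genes known to be switched on when cells slow or stop dividing under stress. The 4 genes were chosen by symbol, from genes whose RNA was already known to be higher with drug in these same libraries, and they are 4 of the 6777 genes tested. RNA and ribosome footprints, the mRNA fragments that ribosomes protect from nuclease, were sequenced from MDA-MB-231, a widely used cell line grown from a human breast tumour of the triple-negative class. Cells received 10 nM AZD0095, an inhibitor of the lactate exporter MCT4, or its solvent DMSO, for 4 h, and all groups shared the same line and medium. There were 3 AZD0095 and 3 DMSO libraries for RNA and again 3 AZD0095 and 3 DMSO libraries for footprints, 12 in all, and footprint cells in both groups also received cycloheximide, which stalls ribosomes. The series set out to follow transcription and translation when lactate builds up. One line at 1 dose and 1 time was profiled, and the labels do not state that replicates were separate cultures, so the tests measure the spread between libraries, which may be technical.

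CDKN1A encodes p21, which binds cyclin-dependent kinases and holds cells before S phase. CCNG2 encodes cyclin G2, an unconventional cyclin that binds the phosphatase PP2A and slows the cycle. GADD45A encodes a small stress sensor that binds PCNA, p21 and the kinase MAP3K4, and GDF15 encodes a secreted cytokine of the TGF-beta superfamily that is released by stressed cells. CDKN1A, GADD45A and GDF15 are textbook genes of the DNA damage response, but they are also known to respond to other signals, GDF15 and GADD45A to ATF4 and CHOP in the integrated stress response, and CCNG2 and GADD45A to FOXO factors. Which factor acted on the 4 genes was not tested, since no cells lacking such a factor were profiled.

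The line's mesenchymal and basal markers fitted its label, and some luminal markers were present too. All 9 mesenchymal and basal markers looked for were listed. They ran from CAV2 at 51.2 to 67.8 FPKM to VIM, the mesenchymal filament vimentin, at 2492 to 2799 FPKM over the 6 RNA libraries. Of 10 luminal and receptor markers 5 were listed. The highest, the keratin gene KRT8, was at 223 to 253 FPKM, above CAV2, EGFR and S100A4 of the mesenchymal and basal list. Of 3 fibroblast and 3 leukocyte markers 0 were listed. The summed mesenchymal markers were at 5505 to 5713 FPKM with AZD0095 and 5169 to 5312 FPKM with DMSO, and the summed luminal markers at 646 to 681 FPKM with AZD0095 and 593 to 621 FPKM with DMSO. The replicate 1 RNA libraries of both groups stood apart from the others of their group on the second principal component of RNA, which held 28.5% of the variance. Footprint libraries were shallow, with 141122 to 501351 implied reads with AZD0095 and 107087 to 192324 with DMSO, while RNA depth could not be recovered and is unknown.

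The promoter windows show what the genes carry just upstream of their starts, since genes that move together can be compared there. RefSeq windows in GRCh38.p14, the hg38 assembly, were matched for 3 of the 4 genes. The 250 bases before the start are printed 5′ to 3′, on the plus strand in all 3, for CDKN1A at chr6:36678464-36678713, for GDF15 at chr19:18385908-18386157 and for CCNG2 at chr4:77156957-77157206. Capitals mark matches, on either strand, to the GC box GGGCGG, the forkhead sequence GTAAACA, the TATA box TATAAA and the E-box CACGTG.
CDKN1A: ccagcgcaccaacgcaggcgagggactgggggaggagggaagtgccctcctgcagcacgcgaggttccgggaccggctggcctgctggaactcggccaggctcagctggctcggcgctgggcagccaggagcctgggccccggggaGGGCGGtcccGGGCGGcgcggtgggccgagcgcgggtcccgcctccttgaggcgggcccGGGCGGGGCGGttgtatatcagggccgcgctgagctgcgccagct
GDF15: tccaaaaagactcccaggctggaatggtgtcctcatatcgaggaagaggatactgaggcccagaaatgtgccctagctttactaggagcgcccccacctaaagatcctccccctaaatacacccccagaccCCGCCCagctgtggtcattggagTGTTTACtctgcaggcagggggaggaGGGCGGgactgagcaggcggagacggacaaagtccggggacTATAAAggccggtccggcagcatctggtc
CCNG2: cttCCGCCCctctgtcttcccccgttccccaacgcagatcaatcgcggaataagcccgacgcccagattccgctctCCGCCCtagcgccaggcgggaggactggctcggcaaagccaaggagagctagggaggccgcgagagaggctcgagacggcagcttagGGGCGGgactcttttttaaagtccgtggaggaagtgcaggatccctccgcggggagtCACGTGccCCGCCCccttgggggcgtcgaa

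GC boxes were the one motif that all 3 windows held. CDKN1A had 4 matches, from position -104 to -35 relative to the start, of which 2 share a base, GDF15 had 2 and CCNG2 had 4. A GC box is present in 45.0% of 35114 RefSeq windows of the same 300 bases, which run from 250 before to 50 after the start. GDF15 held a TATA box at positions -29 to -24, a motif in 11.5% of windows, and a forkhead match at positions -96 to -90 on the minus strand, a motif in 3.42%. CCNG2 held an E-box, which reads the same on both strands, at positions -30 to -25, as 7.26% of windows do. Neither the ATF4 and C/EBP type sequence TGATGNAA (3.62% of windows, which includes TGATGCAA, 0.866%) nor the CRE TGACGTCA (1.85%) occurred in the 300 bases of any of the 3. A match is a description of the letters in these windows, and elements farther away were not searched. GC content was 76.4% for CDKN1A, 58.4% for GDF15 and 65.6% for CCNG2, against a median of 58.0% over all windows.

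The RNA of all 4 genes was higher with AZD0095, from 1.22-fold for GADD45A to 2.60-fold for CCNG2, as a ratio of mean FPKM, a read density scaled to gene length and library total. These RNA values were used to choose the genes, so they are given as a description with no test. In RNA 341 genes, 5.03% of those tested, were called higher at a limma adjusted p under 0.05, and all 4 genes are among them by their choice, while 204 genes, 3.01%, were called lower. The AZD0095 and DMSO libraries did not overlap for any of the 4, as for 17.7% of genes whose AZD0095 libraries all lay above. In cell lysates, more RNA in each cell and more cells with the RNA cannot be told apart.

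CCNG2 had the largest RNA difference of the 4. Its RNA was at 25.1, 24.7 and 24.9 FPKM in AZD0095 replicates 1, 2 and 3, and at 10.3, 8.66 and 9.75 FPKM in DMSO replicates 1, 2 and 3. The 3 AZD0095 libraries lay close together and far above every DMSO library. The means were 24.9 ± 0.235 FPKM with AZD0095 and 9.56 ± 0.823 FPKM with DMSO (SD, n = 3 each), a log2 difference of 1.30, which ranked 4 from the highest of 6777 genes. Its level moved to percentile 52.3 of all genes with AZD0095, against 18.9 with DMSO. The gene, ENSG00000138764, spans chromosome 4 from 77157207 to 77170060.

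GDF15 was the lowest of the 4 in RNA and differed by more between replicates. It was at 2.93, 4.34 and 4.11 FPKM in AZD0095 replicates 1 to 3 and at 2.00, 2.13 and 1.88 FPKM in DMSO replicates 1 to 3. AZD0095 replicate 1 lay below the other 2 treated libraries but above all DMSO libraries. The means were 3.8 ± 0.756 FPKM with AZD0095 and 2.00 ± 0.125 FPKM with DMSO (SD, n = 3 each), a 1.89-fold difference. On the log2(FPKM + 1) scale, which understates the change of a gene this low, the difference was 0.66, ranked 39 from the highest, and it was 0.87 with a pseudocount of 0.1. With DMSO it stood at percentile 0.5 of mean FPKM, close above the lowest value that any listed gene had, 1.002 FPKM. GDF15, ENSG00000130513, lies on chromosome 19 from 18386158 to 18389176.

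CDKN1A, the most abundant of the 4 in RNA, and GADD45A differed by less. CDKN1A was at 55.6, 54.1 and 57.0 FPKM in AZD0095 replicates 1 to 3 and at 43.4, 44.1 and 47.4 FPKM in DMSO replicates 1 to 3. GADD45A was at 33.3, 32.9 and 33.0 FPKM in AZD0095 replicates 1 to 3 and at 28.4, 26.3 and 26.7 FPKM in DMSO replicates 1 to 3. The groups were apart for both genes, and the treated GADD45A libraries were closer to each other than the DMSO ones. Mean RNA was 55.5 ± 1.44 FPKM with AZD0095 and 45.0 ± 2.12 FPKM with DMSO for CDKN1A, a log2 difference of 0.30 (SD, n = 3 each). For GADD45A it was 33.0 ± 0.222 FPKM with AZD0095 and 27.1 ± 1.16 FPKM with DMSO, a log2 difference of 0.28. Among all genes these differences ranked 423 and 502 from the highest. CDKN1A, ENSG00000124762, spans chromosome 6 from 36676463 to 36687332, with the start used for its printed window inside that span, and GADD45A, ENSG00000116717, spans chromosome 1 from 67685201 to 67688334.

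**Figure D1:**
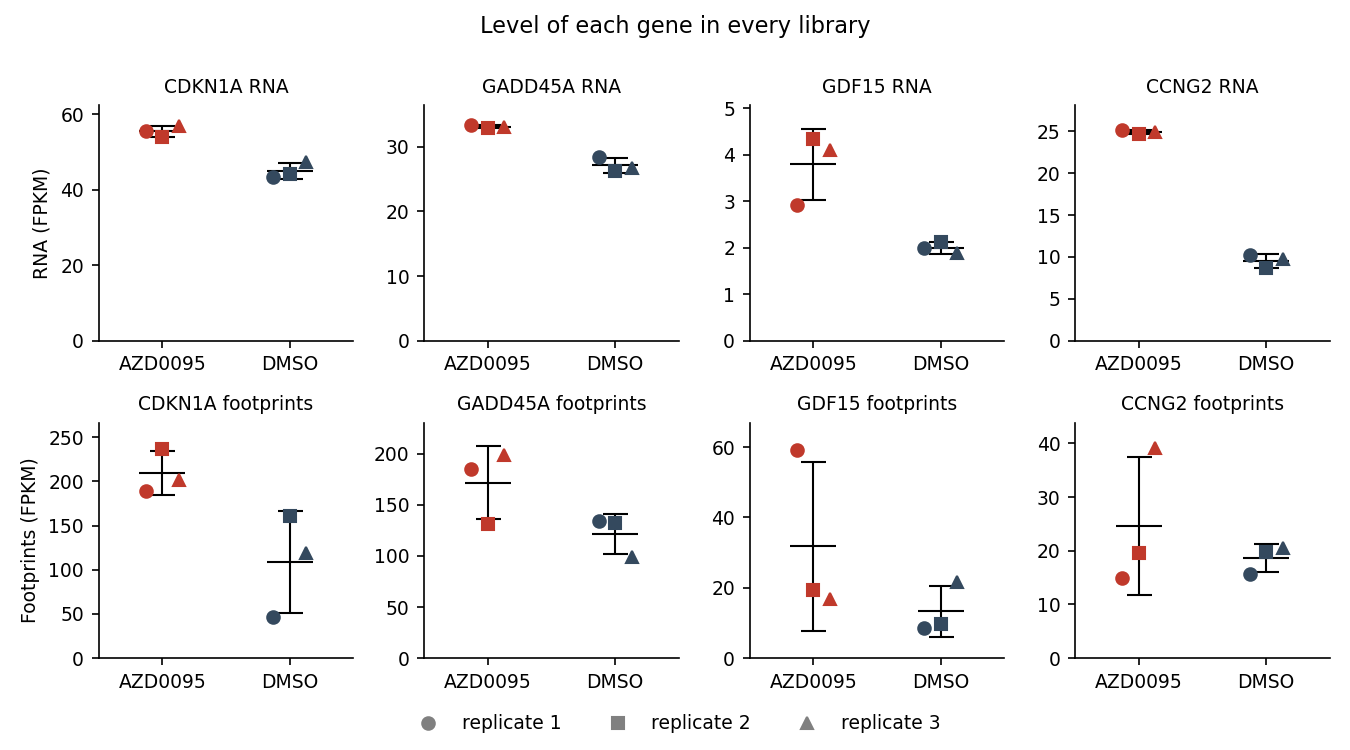
RNA (top row) and footprint (bottom row) levels in FPKM, on axes from 0, for each gene in the AZD0095 and DMSO libraries; points are libraries, with the shape giving the replicate number, and bars are the mean ± SD of 3. The RNA groups are apart for all 4 genes, while footprint groups are apart for CDKN1A only.

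In RNA the order of the 4 levels was the same in both groups: CDKN1A, then GADD45A, then CCNG2, then GDF15. Neighbours in that order did not overlap in either group, although GADD45A and CCNG2 were nearer with AZD0095, at 33.0 and 24.9 FPKM, than with DMSO, at 27.1 and 9.56 FPKM. Taken within the replicate 1 libraries alone, 1 per treatment, the log2 differences were 1.21 for CCNG2, 0.39 for GDF15, 0.35 for CDKN1A and 0.22 for GADD45A. Within replicates 2 and 3 alone they were 1.34, 0.80, 0.27 and 0.30. GDF15 had a smaller difference in the replicate 1 libraries, which stood apart on the principal component, and their part in its value was not tested. Over the alternatives tried, the lowest and highest log2 differences were 1.23 and 1.39 for CCNG2, 0.58 and 0.87 for GDF15, 0.27 and 0.34 for CDKN1A and 0.25 and 0.31 for GADD45A. RefSeq places a lncRNA gene, DINOL, in the span of CDKN1A, another, LOC101928864, in that of CCNG2, and MIR3189 in that of GDF15. The sources used here do not say whether reads were counted by strand, and RNA from such a neighbour on the other strand cannot be told apart from the gene's own.

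Footprints were not used to choose the genes and so give a test. All 4 genes had more footprints with AZD0095 on average, but none was called (limma adjusted p of 0.63 to 0.94), and the intervals were wide. In footprints 0 of the 6777 genes, 0.0%, were called by limma, and 530 genes, 7.82%, had an unadjusted p under 0.05. A log2 change above 0 was found for 53.1% of all genes.

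CDKN1A had footprints at 189, 237 and 202 FPKM in AZD0095 replicates 1 to 3 and at 46.2, 160 and 119 FPKM in DMSO replicates 1 to 3. Every AZD0095 library lay above every DMSO library, as for 7.19% of all genes, and DMSO replicate 1 was far below the other 2. The log2 change was 1.11 ± 0.43 (SE; 95% interval 0.18 to 2.04; limma adjusted p = 0.63; higher in 3 of 3 libraries), one of 278 genes, 4.1%, that were higher at an unadjusted p under 0.05. Without DMSO replicate 1 it was 0.59, and without any other single library 1.02 to 1.48, with adjusted p values of 0.55 to 0.92 over all 6. The steps between low values gave the reads themselves: 14, 27 and 53 reads in AZD0095 replicates 1 to 3 and 3, 9 and 12 reads in DMSO replicates 1 to 3. The 3 reads of DMSO replicate 1 have an exact 95% Poisson interval of 0.619 to 8.77 reads, for counting error only.

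GDF15 had very few footprints. They amounted to 59.3, 19.2 and 16.7 FPKM in AZD0095 replicates 1 to 3 and 8.45, 9.77 and 21.8 FPKM in DMSO replicates 1 to 3. These values stand for 8, 4 and 8 reads with AZD0095 and 1, 1 and 4 reads with DMSO. The groups overlapped, since DMSO replicate 3 lay above 2 of the AZD0095 libraries. The log2 change was 1.07 ± 0.65 (SE; 95% interval -0.33 to 2.48; limma adjusted p = 0.72). Without AZD0095 replicate 1, which held the 1 high value, it was 0.52. The interval is wide enough to hold both 0 and the GDF15 RNA difference of 0.66.

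GADD45A and CCNG2 overlapped between groups in footprints. GADD45A was at 185, 131 and 199 FPKM in AZD0095 replicates 1 to 3 and at 134, 132 and 98.6 FPKM in DMSO replicates 1 to 3, with AZD0095 replicate 2 inside the DMSO range. Its log2 change was 0.49 ± 0.32 (SE; 95% interval -0.22 to 1.19; limma adjusted p = 0.76). CCNG2 was at 15.01, 19.5 and 39.2 FPKM in AZD0095 replicates 1 to 3 and at 15.7, 19.8 and 20.6 FPKM in DMSO replicates 1 to 3. For CCNG2 AZD0095 replicate 3 alone lay above the DMSO libraries, and AZD0095 replicate 1 lay below them all. Its log2 change was 0.27 ± 0.56 (SE; 95% interval -0.95 to 1.49; limma adjusted p = 0.94), and without AZD0095 replicate 3 it was -0.11. Values of these 2 genes did not come to whole reads, so only reads per kilobase can be given. For CCNG2 they were 2.12, 4.24 and 19.7 reads per kilobase in AZD0095 replicates 1 to 3 and 1.95, 2.12 and 3.96 in DMSO replicates 1 to 3. For GADD45A they were 26.1, 28.5 and 99.7 with AZD0095 and 16.6, 14.1 and 19.0 with DMSO. For GADD45A the single-library alternatives ran from 0.34 without DMSO replicate 3 to 0.67 without AZD0095 replicate 2.

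**Figure D2:**
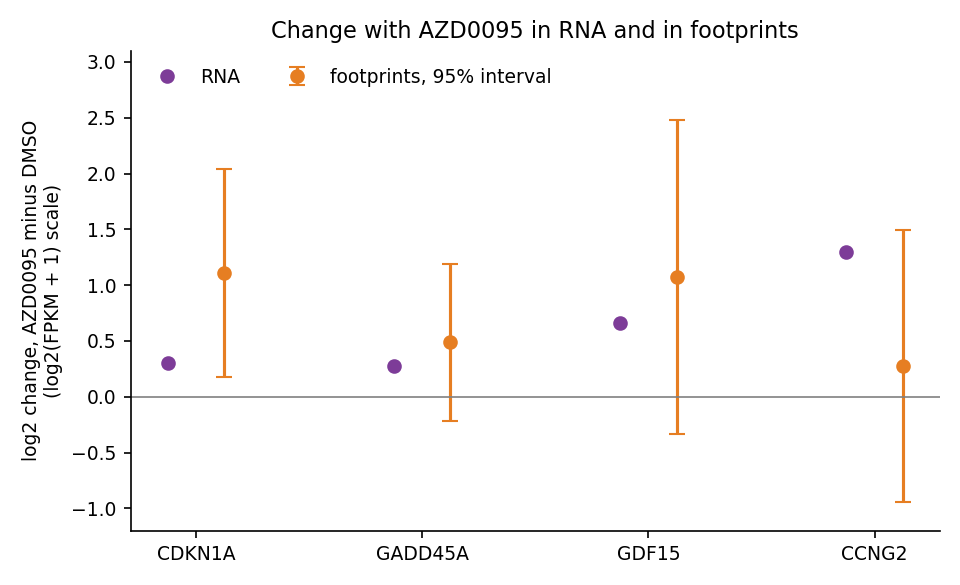
Log2 change, AZD0095 minus DMSO on the log2(FPKM + 1) scale, of each gene in RNA (points, no interval, since RNA chose the genes) and in footprints (points with the limma 95% interval, 3 libraries per group). The footprint interval lies above 0 for CDKN1A only, at 0.18 to 2.04, and CCNG2 has the highest RNA point, 1.30, and the lowest footprint point, 0.27.

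The deepest library of each group weighs no more than the others in these means. When the reads of a group were summed and divided by the summed depth, 859839 implied reads with AZD0095 and 423270 with DMSO, the footprint differences drew closer together. CDKN1A was 1.93-fold higher with AZD0095, GDF15 1.64-fold, CCNG2 1.60-fold and GADD45A 1.53-fold, a calculation added after seeing the data. CDKN1A had 94 reads or 10.9 per 100000 (exact 95% Poisson interval 8.83 to 13.4) with AZD0095 and 24 reads or 5.67 per 100000 (3.63 to 8.44) with DMSO. GDF15 had 20 reads or 2.33 per 100000 (1.42 to 3.59) with AZD0095 and 6 reads or 1.42 per 100000 (0.520 to 3.09) with DMSO. These intervals cover counting error within the libraries and not the spread between them. AZD0095 replicate 3 gave 53 of the 94 CDKN1A reads and 8 of the 20 GDF15 reads. For CCNG2 it held 19.7 reads per kilobase, against 2.12 and 4.24 in AZD0095 replicates 1 and 2. For GADD45A it held 99.7, against 26.1 and 28.5. Reads per kilobase are not scaled to depth, and AZD0095 replicate 3 was the deepest, with 501351 implied reads against 141122 and 217366. In FPKM, which is scaled, CCNG2 was at 39.2 in that library against 15.01 and 19.5, so the CCNG2 fold rests mostly on it. GADD45A was at 199 FPKM there, against 185 and 131, so its value was near that of AZD0095 replicate 1.

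In footprints the 4 genes fell into a higher and a lower pair in both groups. CDKN1A and GADD45A averaged 209 and 172 FPKM with AZD0095, and 109 and 121 FPKM with DMSO. GDF15 and CCNG2 averaged 31.7 and 24.6 FPKM with AZD0095, and 13.3 and 18.7 FPKM with DMSO. Every library of the higher pair lay above every library of the lower pair of its group, while the 2 genes within a pair overlapped.

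The ratio of mean footprint to mean RNA FPKM, a measure of how densely an mRNA is translated, differed between the genes. With AZD0095 it was 8.36 for GDF15, 5.2 for GADD45A, 3.77 for CDKN1A and 0.987 for CCNG2, against a median of 2.45 over all genes. With DMSO it was 6.65 for GDF15, 4.48 for GADD45A, 2.41 for CDKN1A and 1.95 for CCNG2, against a median of 2.43. Placed among all genes, CCNG2 stood at percentile 10.1 with AZD0095 and 38.6 with DMSO, CDKN1A at 73.1 with AZD0095 and 49.8 with DMSO, GADD45A at 85.2 with AZD0095 and 78.4 with DMSO, and GDF15 at 95.1 with AZD0095 and 89.9 with DMSO. The GDF15 ratios rest on the 20 and 6 reads named above and on RNA near the listing floor.

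Changes of footprints per RNA are given with no test for these genes, because they contain the RNA difference that chose them. In a limma model of assay and treatment over all 12 libraries, CCNG2 was at -1.02 ± 0.48 (log2, SE), ranked 285 from the lowest of 6777 genes. Its estimated footprint difference was thus smaller than its RNA difference, and the CCNG2 value ran from -1.41 to -0.74 over the alternatives. However, the CCNG2 footprint interval of -0.95 to 1.49 is wide enough to hold its RNA difference of 1.30. CDKN1A was at 0.81 ± 0.47, GDF15 at 0.41 ± 0.66 and GADD45A at 0.21 ± 0.29. The CDKN1A value was 0.29 without DMSO footprint replicate 1, and the GDF15 value was -0.15 without AZD0095 footprint replicate 1. Across all genes limma called 0, 0.0%, in this comparison, with 578, 8.53%, at an unadjusted p under 0.05.

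**Figure D3:**
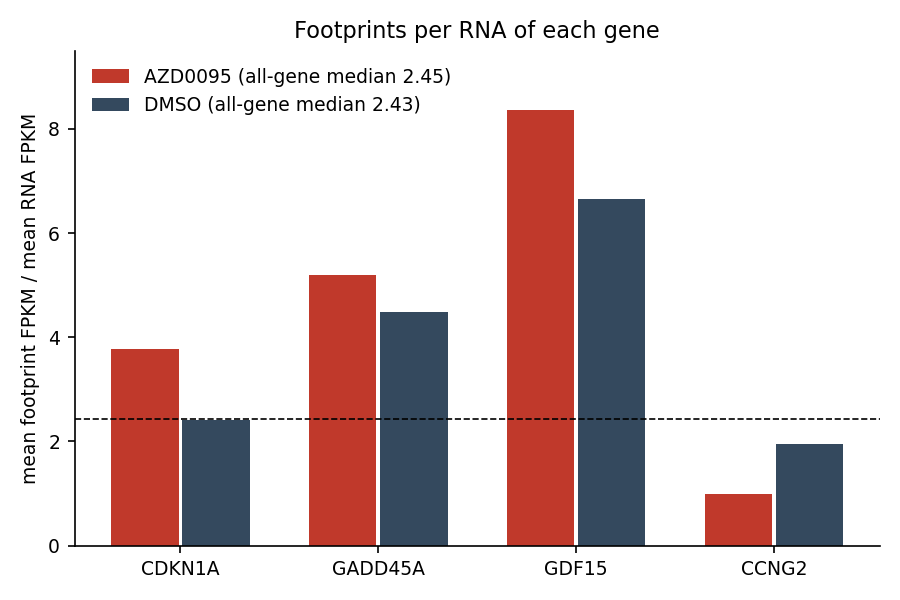
Ratio of mean footprint FPKM to mean RNA FPKM for each gene with AZD0095 and with DMSO, with the dashed line at the DMSO median of all genes, 2.43. CCNG2 has the lowest bar in both groups, at 0.987 with AZD0095 and 1.95 with DMSO, and GDF15 the highest.

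Other DNA damage response genes moved in both directions. Of 29 further genes known to be induced by DNA damage that were looked for, 15 were tested in RNA, of which 2 rose, 1 fell and 12 were not called, beside 8.04% of all genes called in either direction. Their median log2 change was 0.02, against 0.01 over all genes. SFN, the 14-3-3 sigma protein that holds CDK1 in the cytoplasm, rose to 71.5 ± 1.88 FPKM with AZD0095, against 53.6 ± 0.807 FPKM with DMSO (SD, n = 3 each; log2 change 0.41, limma adjusted p = 0.0039). The death receptor gene TNFRSF10B rose by 0.48 and the polo-like kinase gene PLK2 fell by 0.40. MDM2, a ubiquitin ligase gene, was at 14 ± 0.267 FPKM with AZD0095 and 13.8 ± 1.43 FPKM with DMSO, a log2 change of 0.02 (limma adjusted p = 0.92). CCNG1, the damage-induced relative of CCNG2, was at 0.10 (0.74). In footprints 0 of the 15 were called by limma and 2 had an unadjusted p under 0.05, MDM2, at -1.33, and RPS27L, at 0.82, the second named after its value was seen, beside 7.82% of all genes. Without single libraries the count of called genes in this list was 1 to 4: SFN kept its call throughout, while TNFRSF10B was no longer called once DMSO replicate 2 (adjusted p = 0.056), AZD0095 replicate 2 (0.077) or AZD0095 replicate 3 (0.053) was left out. PLK2 was no longer called when DMSO replicate 1 (0.052), DMSO replicate 2 (0.074), AZD0095 replicate 2 (0.079) or AZD0095 replicate 3 (0.050) was removed.

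Most tested genes of a list of ATF4 and CHOP targets, which also held ATF4 itself, rose. ATF4 and CHOP are factors known to act on GDF15 and GADD45A. Of 20 looked for, 13 were tested, of which 10 rose, ATF4 among them, 0 fell and 3 were not called. Over all genes 5.03% were called higher and 3.01% lower. The median log2 change of the list was 0.46, against 0.01 over all genes. By the rule of smallest p, the named 4 are the stress-induced mTORC1 inhibitor gene DDIT4 (log2 change 2.23), the cysteine-forming enzyme gene CTH (1.33), the pseudokinase gene TRIB3 (1.31) and the amino acid transporter gene SLC38A2 (0.84), and each kept its call without every library in turn. The count was 7 to 10 without single libraries. In footprints 0 of the 13 were called by limma, and 4, all of them higher, had an unadjusted p under 0.05, beside 4.1% of all genes: DDIT4 (1.68), CTH (1.63), PSAT1 (0.90) and SLC38A2 (0.79). PSAT1 was named after its value was seen. The list itself was chosen with earlier results of these data known, so its share of called genes is a description. Since the drug and solvent libraries are the same for this list and for the 4 genes, the 2 sets of values stand side by side and are not independent.

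FOXO factors and their targets are another known route to CCNG2. Of 17 looked for, 10 were tested, of which 1 rose, TXNIP, a brake on glucose uptake (0.24), and 9 were not called, a share near the 8.04% of all genes called, with a median log2 change of 0.05 against 0.01 over all genes. CDKN1B, which encodes the kinase inhibitor p27 and is a classical FOXO target, was at 14 ± 1.18 FPKM with AZD0095 and 14.4 ± 0.622 FPKM with DMSO (SD, n = 3 each; -0.04, limma adjusted p = 0.81). TXNIP was called without AZD0095 replicate 1 and not without any of the other 5 RNA libraries (limma adjusted p of 0.051 to 0.10). In footprints 0 of the 10 were called by limma, and TXNIP (0.70) had an unadjusted p under 0.05.

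Other kinase inhibitors, and the cyclins and kinases that p21 acts on, moved both ways. Of 7 further CDK inhibitor genes 3 were tested and 1 rose, CDKN2D, which encodes p19 of the INK4 family (0.46), while CDKN1B and CDKN3 were not called. Of 17 p21 partners 14 were tested, of which 2 rose, 2 fell and 10 were not called, beside 8.04% of all genes called, with a median of -0.08. CDK2 (0.28) and CCND3 (0.28) rose, and the cyclins CCNE2 (-0.67) and CCND1 (-0.19) fell. PCNA, the replication clamp that binds p21, was at -0.07 and CDK4 at 0.00, neither called. None of these 5 calls held when DMSO replicate 1, DMSO replicate 2, AZD0095 replicate 2 or AZD0095 replicate 3 was removed, where 0 p21 partners were called, against 1 without DMSO replicate 3 and 7, 5 of them lower, without AZD0095 replicate 1. The CDKN2D call was also lost with median centring (adjusted p = 0.050) and quantile normalization (0.054), and the CCND1 call with median centring (0.052) and without a variance trend (0.079). In footprints 0 of the 3 inhibitors and 0 of the 14 partners were called by limma, and 0 had an unadjusted p under 0.05.

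Relatives and partners of GADD45A, CCNG2 and GDF15 are read beside the 8.04% of all genes called in RNA. GADD45B, the closest tested relative of GADD45A, was at 17.4 ± 1.51 FPKM with AZD0095 and 20.6 ± 1.03 FPKM with DMSO (SD, n = 3 each; -0.23, limma adjusted p = 0.13). It was called lower with replicate 1 as a batch (adjusted p = 0.029), and over all alternatives its adjusted p ran from 9.4e-04 to 0.34. Of 7 genes of the GADD45 family and its partners, kinases and others, 0 were called in RNA by limma, with 0 called without each library in turn. Of 11 genes of the cyclin G family and its PP2A and kinase partners 2 rose, the PP2A regulatory subunit genes PPP2R5B (0.41) and PPP2R5D (0.26), and 9 were not called. Of 5 tested genes of GDF15 processing and SMAD signalling 1 fell, SMAD4 (-0.35), and 4 were not called. Of 10 tested genes among other factors known to act on the 4 genes, JUNB (0.48) and KLF4 (0.43), a factor known to induce CDKN1A, rose and 8 were not called, MYC, known to repress CDKN1A, among them at 0.03. JUNB kept its call without each library, whereas KLF4 missed the threshold once DMSO replicate 2 (0.059) or AZD0095 replicate 2 (0.058) was dropped. PPP2R5B, PPP2R5D and SMAD4 were called without AZD0095 replicate 1 and not without any of the other RNA libraries (limma adjusted p of 0.054 to 0.16). In footprints 0 genes of these lists were called by limma, and PPP2R1B (-1.33), a PP2A scaffold subunit gene, had an unadjusted p under 0.05, named after its value was seen.

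**Figure D4:**
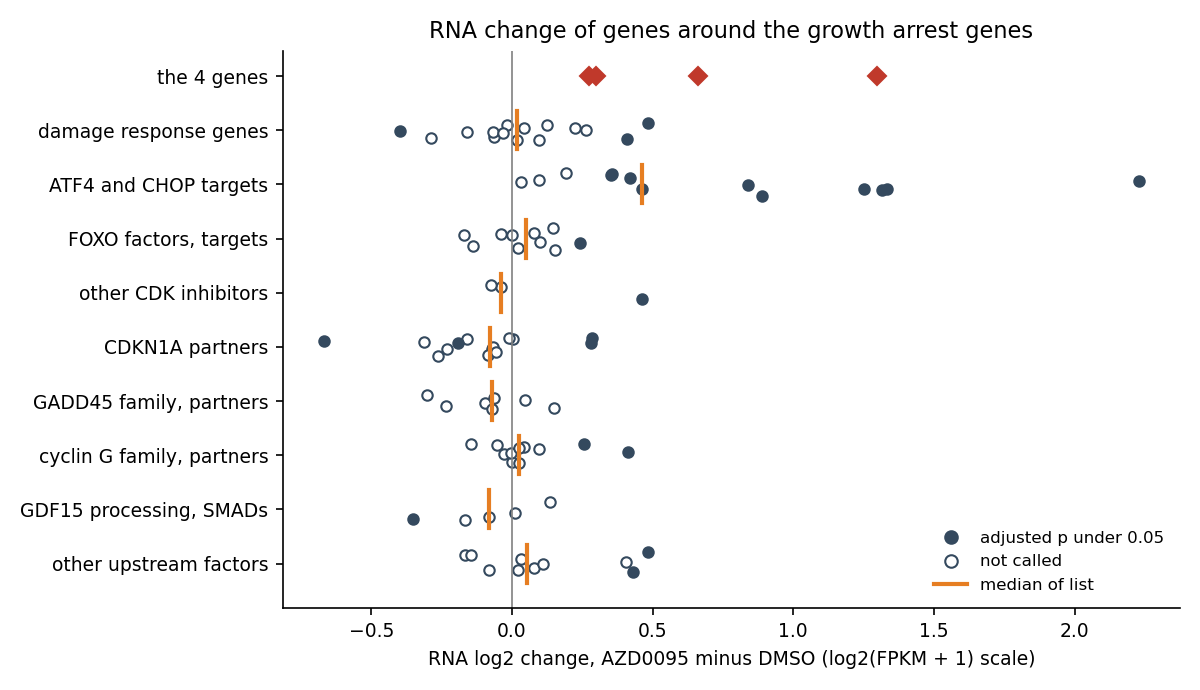
RNA log2 change, AZD0095 minus DMSO, of the 4 genes (diamonds) and of each tested gene in 9 lists around them (circles, filled where the limma adjusted p was under 0.05; orange bars are list medians). Filled circles reach 2.23 and number 10 of 13, all higher, in the ATF4 and CHOP list. Among other DNA damage response genes they number 3 of 15, 2 higher and 1 lower. Over all genes tested 5.03% were called higher and 3.01% lower. All lists were chosen with earlier results of these data known, so the counts are a description.

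Genes whose RNA followed each of the 4 most closely were ranked by Pearson's r of log2(FPKM + 1) over the 6 RNA libraries, a description over few libraries that share the treatment split. CCNG2 was followed by AREG, the EGFR ligand amphiregulin (0.997), the transcription factor ETV5 (0.996), TM4SF1 (0.996), XBP1 (0.995) and ATXN2 (0.995). CDKN1A was followed by PLCB3 (0.997), MDK, the growth factor midkine (0.995), RUSC1 (0.995), XYLT2 (0.994) and LYPLA2 (0.994). The GADD45A pattern was closest to those of MYH10 (0.996), STX6 (0.995), TM4SF1 (0.993), IL32 (0.992) and SLC38A2 (0.990), so TM4SF1 stood in its group and in that of CCNG2. For GDF15, 4 of the 5 closest genes are given: CBL, a ubiquitin ligase of growth factor receptors (0.999), LZTS2 (0.9935), the repressor ERF (0.992) and SH3BP2 (0.990). Among the 4 genes themselves r was highest between GADD45A and CCNG2 (0.986) and lowest between CDKN1A and GDF15 (0.855).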

How the data were processed

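Per the file headers, the authors deposited FPKM values, scaled to gene length and library total, in 1 table per library. The submitters' processing notes name the tools fastp, Bowtie2 and STAR and the build hg38. Which tool did which step, the counter and the formula are not stated in those notes. The labels call the RNA both total and polyA. Each of the 12 tables listed 6785 genes, none below 1.002 FPKM in any library, so genes under that level anywhere are not analysed here. After 8 repeated entries were removed, 6777 genes were tested. Values were taken as log2(FPKM + 1), pseudocount 1, with a minimum mean of 1 FPKM, which dropped 0 genes. Treatments were compared within RNA and within footprints by two-sided limma (3.58.1, R 4.3.3) with trended variance, and footprints per RNA by the interaction over 12 libraries, with Benjamini-Hochberg adjustment over all genes and calls at an adjusted p under 0.05.

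Footprint reads were recovered from steps shared by low FPKM values, because whole reads give whole multiples: 1183 genes, 17.5%, came to whole reads, and up to 248 genes shared 1 ratio in a pair of libraries, against at most 13 for RNA. The shortest whole solution was taken, so reads with a common factor can be too low. The steps were tested on values simulated only from genes that had come to whole reads. There 6707 of 6777 genes were recovered, 98.58% of them with the right reads, and the depth was exact in 6 libraries. In the real values only 17.5% of genes came to whole reads, so the simulation does not cover the other genes. The 4 genes and all lists were chosen with earlier results of these data known. Named besides the 4 were up to 4 called genes with the smallest RNA p per list, MDM2, CCNG1, GADD45B, CDKN1B, and the 5 most correlated genes of each. Some items that the rules named are not reported here. Alternatives were pseudocount 0.1, a filter of 5 FPKM, median centring, quantile normalization, no variance trend, a replicate block, library weights, replicate 1 as a batch and each library left out. Of the IDs, 6776 matched a gene name table. Sequences and positions come from RefSeq, GRCh38.p14.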

Additional observations from a re-analysis of the deposited data

How the results depend on the processing

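The RNA count of 545 called genes was 100 to 1112 without single libraries, 1622 with the replicate block, 1660 with replicate 1 as a batch, 3086 with library weights and, added after seeing the data, 1395 with replicates 2 and 3 alone; the cause was not tested. The replicate block paired libraries by number. Deviations of same-numbered footprint libraries correlated at 0.00878, -0.0223 and 0.0913, and those of unlike numbers from -0.0656 to 0.0533. Genes with whole reads had a median of only 6 to 29 footprint reads per library. Low correlations at such depth cannot decide whether the numbers pair the footprint libraries. For RNA the same-numbered correlations were 0.622, 0.0857 and 0.489, and those of unlike numbers ran from -0.57 to 0.303. What the RNA replicate numbers stand for was not tested. Under the block 0 genes were called in footprints. Footprints stayed at 0 called under every alternative tried. Footprints per RNA had 0 called genes, 1 without a variance trend, and 0 to 4 without single libraries. The footprint log2 change of CCNG2 turned to -0.11 without AZD0095 replicate 3, and its range without single libraries was -0.11 to 0.55. Without single libraries the footprint per RNA change of GDF15 was -0.15 (without AZD0095 footprint replicate 1) to 0.80, and the RNA changes were -0.0475 (without DMSO replicate 2) to 0.0903 for MDM2, -0.0741 (without AZD0095 replicate 1) to 0.19 for CCNG1 and -0.0754 to 0.0278 (without AZD0095 replicate 3) for CDKN1B. With library weights CCNG1 was at -0.0116. None of these was called. GADD45B was called with the replicate block (adjusted p = 0.031), library weights and replicate 1 as a batch. Of the 18 called list genes named, 12 lost their call without DMSO replicate 2 and 0 without AZD0095 replicate 1. No footprint call was made for the 4 genes under any alternative. GDF15 footprints rest on 20 reads with AZD0095 and 6 with DMSO. In values simulated with the spread of these libraries, the footprint test called 0 of 100 genes changed by 0.5 log2. It called 8 of 100 genes changed by 1.5 log2, while the RNA test called 63 and 100. A missing footprint call therefore does not show that footprints were unchanged. How far depth alone limits the footprint tests was not tested.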
